A study of Mus musculus with 18 samples.

Results

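mTORC1 is the lysosomal kinase complex that couples nutrients and growth factor signals to protein synthesis, and 10 of its components and regulators were followed here at the level of mRNA in the frontal cortex of mice. They were the 10 genes of that name in the table of read counts, out of 55487 genes in all: Mtor, Rptor, Mlst8 and Akt1s1 of the complex itself, Rheb, Tsc1 and Tsc2 of the growth factor arm, Rraga and Rragd of the amino acid arm, and the substrate Rps6kb1. All 10 passed the filter on low counts, which left 17414 genes. The mice fell into 3 genotypes of 6 animals each, with 3 females and 3 males in a group, aged 9 to 10 months. The groups were WT, APP/PS1 (the double transgenic line 85Dbo, which carries APPswe, a model of amyloid deposition) and APP/PS1/FTnKO, which carried the same transgenes and lacked the β-subunit of farnesyltransferase (FT) in forebrain neurons. By the study's breeding scheme every group was homozygous for the floxed FT allele (FT f/f), and APP/PS1/FTnKO alone also carried Cre recombinase, driven by the CaMKIIα promoter, so that glia, vessels and neurons outside the reach of that promoter kept the gene. The record names the WT mice C57BL/6J, whereas the breeding scheme makes them FT f/f littermates without Cre, so their background is uncertain. Mice with the knockout and no transgenes are not analysed here, so an effect of losing FT without amyloid cannot be separated.

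The complex is built around the kinase mTOR, with Raptor (Rptor) choosing its substrates, mLST8 steadying the kinase and PRAS40 (Akt1s1) holding it in check. Growth factor signals act through the TSC complex, in which TSC1 and TSC2 keep the small GTPase Rheb inactive, whereas amino acids act through Rag GTPases, heterodimers of RagA or RagB with RagC or RagD that bring mTORC1 to the lysosome, where Rheb switches it on. S6 kinase 1 (Rps6kb1) then carries the signal to ribosomal protein S6. Rheb is a farnesylated protein, which is where this pathway meets the enzyme deleted here, and these data measure only mRNA and neither farnesylation nor kinase activity.

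The site of farnesylation is encoded at the very end of the Rheb reading frame, on the minus strand of chromosome 5 in GRCm38. The last 15 coding bases of Rheb and of its paralog Rhebl1 are shown because they hold the feature that makes Rheb a substrate of FT, with the codon of the modified cysteine in capitals, followed by 3 codons and the stop.
Rheb (chr5:24803664-24803678, minus strand): TGCtcggtgatgtga
Rhebl1 (chr15:98878205-98878219, minus strand): TGCtatcttatgtga
In both annotated transcripts the reading frame holds 184 codons, and the cysteine codon has the same letters while the 2 codons after it differ.

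All 10 members are protein-coding. In GRCm38 the subunits lie at chr4:148448611-148557683 (Mtor, plus strand), chr11:119602905-119899576 (Rptor, plus), chr17:24473551-24479078 (Mlst8, minus) and chr7:44848991-44855421 (Akt1s1, plus). The GTPase Rheb is at chr5:24802823-24842624 (minus), its inhibitors at chr2:28641228-28691167 (Tsc1, plus) and chr17:24595816-24632630 (Tsc2, minus), Rraga at chr4:86575668-86577285 (plus) and Rps6kb1 at chr11:86498871-86544805 (minus). Exonic bases shared with a gene on the other strand, whose reads could be confused where strand was not counted, amounted to 997 for Mlst8 (with Bricd5), 693 for Tsc2 (Pkd1), 155 for Rps6kb1 (Rnft1), 89 for Akt1s1 (Tbc1d17) and 84 for Rptor (Rptoros).

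Each library held 15925432 to 21030935 counted reads. The label of 1 library went against its content. WT mouse 19622, labelled as frontal cortex, had a summed level of 448 CPM (read counts scaled to the size of the library) over 6 excitatory neuron markers, against 3822 to 6963 in the other 17 mice, and 3283 CPM over 8 cerebellum markers, against 39.2 to 78.1. Of 17285 genes tested in all 18 mice, 9580 (55.4%) lay outside the range of the other 17 in it. That mouse was therefore kept out of the main fit and is described apart, and results with it are given where they change a call. Choroid plexus RNA was visible in APP/PS1 mouse 19554 (435.9 CPM over 3 markers) and WT mouse 19053 (66.4 CPM). It was weaker in APP/PS1 mouse 19553 (23.7 CPM) and APP/PS1/FTnKO mouse 16974 (11.8 CPM). The rest of the 17 mice had 2.2 to 5.4 CPM. The 6 excitatory neuron markers, all of them detected, summed on the scaling of those 17 mice to 3810 to 5568 CPM (median 4216) in APP/PS1/FTnKO, 4611 to 6684 (median 5613) in APP/PS1 and 5129 to 6924 (median 5419) in WT. These ranges overlapped, 0 of 6 markers was called against APP/PS1, with 4 of 6 lower, and 1 of 6, Slc17a7, was called lower against WT (adjusted p = 0.0396). The 6 activated microglia markers were called higher than WT in both transgenic groups, 6 of 6, and their sum was 63.9 to 213 CPM in APP/PS1/FTnKO, 102 to 309 in APP/PS1 and 31.6 to 36.1 in WT. Homeostatic microglia markers summed to 305 to 488, 401 to 626 and 302 to 341 CPM, in that order, and 0 of 6 of either microglia list was called against APP/PS1, although all 12 values were lower. In bulk tissue, fewer cells of a type and less RNA per cell cannot be told apart.

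The targeted gene served as the check of the labels. Fntb, which encodes the deleted β-subunit, had 7.84, 9.24, 11.5, 13.6, 13.9 and 14.7 normalized CPM in the 6 APP/PS1/FTnKO mice, 14.2 to 32.1 (median 15.8) in APP/PS1 and 14.1, 16.8, 16.9, 30.8 and 32.2 in the 5 WT mice. The highest knockout mouse overlapped the lowest controls by a narrow margin, and controls of both genotypes were split between levels near 15 and levels near 30. The difference in Fntb was -0.77 (SE 0.26) on the log2 scale against APP/PS1 and -0.93 (SE 0.27) against WT. In the main fit neither passed a false discovery rate (FDR) of 0.05 in edgeR's quasi-likelihood test, at adjusted p = 0.251 and 0.0658. By DESeq2 the difference passed against WT (adjusted p = 0.0438) and not against APP/PS1 (adjusted p = 0.22). Fnta, the α-subunit that FT shares with another prenyltransferase, differed by 0.06 against APP/PS1 (adjusted p = 0.679). The transgenes were seen where the labels placed them: App averaged 2897 CPM in APP/PS1 and 2972 in APP/PS1/FTnKO against 1534 in WT, and Prnp, whose promoter sequences drive this transgene pair, 2118 and 2192 against 702.

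Among the 10 mTORC1 genes, 1 was called with loss of neuronal FT, and its call against APP/PS1 was lost in 13 of the 17 fits that left out a mouse. Rragd, the gene for RagD, fell in APP/PS1/FTnKO relative to APP/PS1 and to WT alike, whereas Mtor, Rheb, Tsc1, Tsc2, Rptor, Akt1s1 and Rps6kb1 were within 0.09 log2 units of APP/PS1. Against APP/PS1, 1 of 10 members passed the FDR of 0.05, where 0.327% of all tested genes did (57 of 17414). Against WT it was again 1 of 10 in APP/PS1/FTnKO, where 3.87% of all genes passed, and 0 of 10 in APP/PS1, where 1.5% did. By DESeq2 the numbers were 1, 2 and 0, in the same order, beside 1.38%, 7.63% and 2.19% of all genes, and at an unadjusted p under 0.05 they were 2, 5 and 2, beside 11.5%, 22.1% and 14% of all genes. Over the 10 members the median log2 fold change was 0.01 against APP/PS1, -0.07 in APP/PS1/FTnKO against WT and -0.06 in APP/PS1 against WT, and over all genes it was within 0.01 of 0 in each. These 3 comparisons share their groups, so a low WT or APP/PS1 value enters more than one of them.

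**Figure D1:**
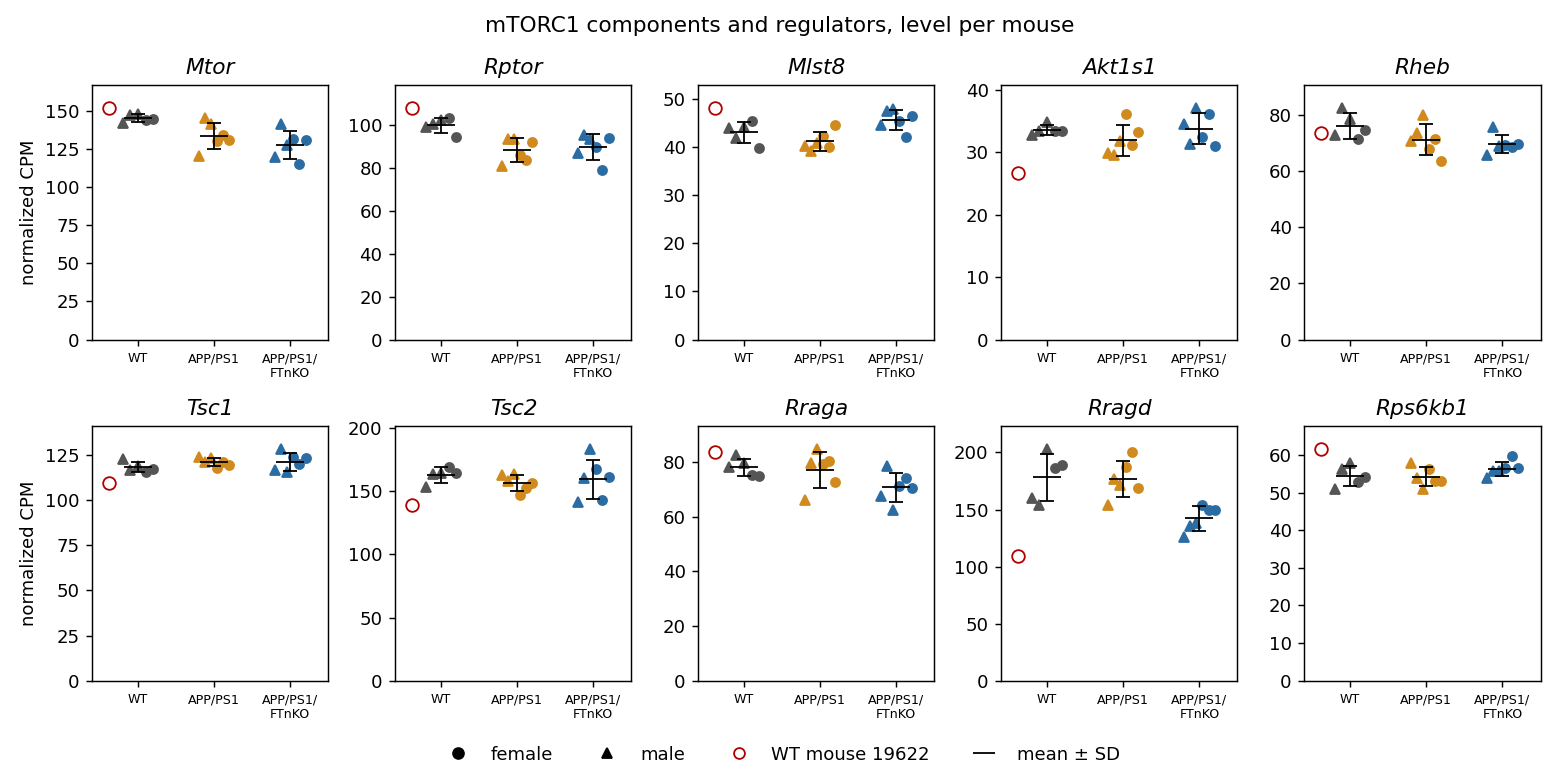
Normalized CPM (vertical axis, from 0) of the 10 genes in each mouse by genotype, with females as circles, males as triangles, the mean and SD in black, and WT mouse 19622 as an open red circle outside the groups. In the Rragd panel the 6 APP/PS1/FTnKO mice, at 126 to 154 CPM, sit below every mouse of the other groups but 19622 (scaled with all 18 mice), and the nearest of them are at 154 as well.

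Rragd gave 126, 135, 138, 149.9, 150.04 and 154.1 CPM in the 6 APP/PS1/FTnKO mice. The 6 APP/PS1 mice had 154.2, 169, 172, 176, 187 and 200.3 CPM, and the 5 WT mice 154.3, 160.1, 186, 189 and 203 CPM. The groups did not overlap, but only just: the highest knockout mouse, a female, and the lowest APP/PS1 mouse, a male, stood at 154.10 and 154.15 CPM. The mean was 142 ± 10.8 (SD, n = 6) in APP/PS1/FTnKO, 176 ± 15.9 (SD, n = 6) in APP/PS1 and 178 ± 20.5 (SD, n = 5) in WT. Against APP/PS1 the log2 fold change was -0.31 (SE 0.06, 95% interval -0.44 to -0.18, adjusted p = 0.0392 by edgeR's quasi-likelihood test). Against WT it was -0.34 (SE 0.06, interval -0.48 to -0.21, adjusted p = 0.00826), and APP/PS1 against WT differed by -0.03 (interval -0.17 to 0.11, adjusted p = 0.868). Groups that did not overlap made up 0.97% of all tested genes against APP/PS1 and 5.6% against WT, and a two-sided exact permutation test of such a gene can only give its smallest value, here p = 0.00216. The part of the microglia marker levels given above in the Rragd difference was not tested.

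The knockout and APP/PS1 groups stood further apart within a sex than over both. Females had 149.9 to 154.1 CPM in APP/PS1/FTnKO against 169 to 200.3 in APP/PS1, and males 126 to 138 against 154 to 176. The knockout difference was -0.29 in females and -0.33 in males, and the interaction of sex and genotype was not called for Rragd (adjusted p near 1). No member had an unadjusted interaction p under 0.05 in any of the 3 comparisons, and across all genes 0 were called, with 578 at an unadjusted p under 0.05 against APP/PS1. Over all genotypes, Rragd was lower in males by 0.15 log2 units (unadjusted p = 0.0088, adjusted p = 0.575).

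The call of Rragd against APP/PS1 depended on which mice entered. It was kept when 16975, 19718, 19721 or 19723 was left out and lost, at adjusted p up to 0.104, when any of the other 13 was, while the log2 fold change stayed between -0.34 and -0.29. With WT mouse 19622 included, adjusted p rose to 0.670 at an unmoved log2 fold change of -0.31. At that same value it was 0.0722 with no sex term and 0.0516 with only the genotypes compared in the fit. Without APP/PS1 mouse 19554 and WT mouse 19053, which had the most choroid plexus RNA of the 17, the log2 fold change was -0.29 with adjusted p = 0.155. Against WT the call held in each of the 17 fits that left out a mouse (adjusted p 0.00568 to 0.0302), and was lost with 19622 included, at -0.23 and adjusted p = 0.275, as that mouse had 109 CPM of Rragd, under all 17 others.

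**Figure D2:**
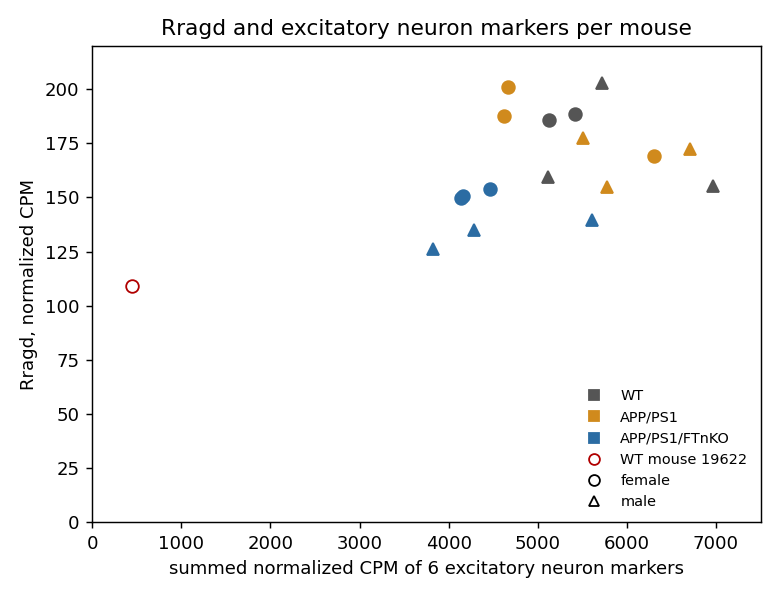
Rragd (vertical axis, normalized CPM) against the summed CPM of 6 excitatory neuron markers (horizontal axis), 1 point per mouse, all 18 mice scaled together, colour by genotype and symbol by sex. APP/PS1/FTnKO mice lie low on both axes except 1 male with a high marker sum and low Rragd, 2 of its females coincide, and WT mouse 19622, at a marker sum of 448, lies apart from all others.

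As the summed excitatory markers had a lower median in the knockout, Rragd was refitted with their mean log2 level in each mouse as a covariate, leaving out Camk2a, whose promoter drives Cre. The log2 fold change was then -0.31 against APP/PS1 (adjusted p = 0.034) and -0.34 against WT (adjusted p = 0.0264). The values without the covariate were -0.31 and -0.34. This alternative fit was chosen after the data had been seen, and the part of neuron content in the Rragd difference was not tested. A fit with RIN, the RNA integrity number, as covariate gave adjusted p = 0.012 against APP/PS1, and with the 3 mice of RIN under 8 left out it was 0.171 at -0.29.

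Rragd lies on the plus strand of chromosome 4 (GRCm38, 32983037 to 33022180, 8 exon blocks), and no other annotated gene shares exonic bases with it. RagD is known as a target of the MiT/TFE transcription factors, TFEB and TFE3 among them, which bind E-boxes with the core CACGTG. The 250 bases upstream of its RefSeq start site are shown for that reason, with E-boxes of any core (CANNTG, both strands) in capitals.
Rragd upstream (chr4:32982748-32982997, plus strand, GRCm38.p6): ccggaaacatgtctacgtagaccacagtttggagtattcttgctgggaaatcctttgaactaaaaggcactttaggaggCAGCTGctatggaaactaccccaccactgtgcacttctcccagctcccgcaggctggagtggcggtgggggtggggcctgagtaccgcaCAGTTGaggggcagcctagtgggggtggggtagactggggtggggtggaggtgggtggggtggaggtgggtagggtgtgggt
This window held 2 matches to CANNTG, at -171 and -82 from the start site, where 66.2% of 32851 promoter windows of the same length held at least 1. It held no CACGTG, which 6.02% of all windows contain, while the Rheb window had 1, at -96. A match or its lack describes these letters and says nothing of binding.

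Rraga, the partner class of RagD and a gene of a single exon, had 62.6 to 78.4 CPM (median 70.8) in APP/PS1/FTnKO, 66.1 to 84.6 (median 79.5) in APP/PS1 and 74.7, 75.4, 78.3, 79.6 and 82.5 in WT. The groups overlapped, with 5 of 6 knockout mice below all WT mice. The log2 fold change was -0.13 (SE 0.06) against APP/PS1 and -0.14 (SE 0.07) against WT, and neither passed (adjusted p = 0.458 and 0.205).

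Rheb itself did not differ detectably with loss of the enzyme that modifies it. Its levels ran from 65.9 to 75.8 CPM (median 69.3) in APP/PS1/FTnKO, 63.6 to 80.0 (median 71.2) in APP/PS1 and at 71.5, 73.0, 74.7, 78.8 and 82.6 in WT. The knockout mice lay wholly within the range of APP/PS1. The difference was -0.03 (95% interval -0.13 to 0.07, adjusted p = 0.872 by edgeR). Against WT it was -0.12 (interval -0.22 to -0.01, adjusted p = 0.198), with 5 of 6 knockout mice below all WT mice. Rhebl1, the paralog shown with Rheb, was present at 7.6 to 11.1 CPM in APP/PS1/FTnKO and 7.48 to 11.1 in APP/PS1.

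Tsc1 and Tsc2, the inhibitors of Rheb, were flat. Tsc1 had a mean of 121 CPM in both APP/PS1 groups and 118 in WT, and its difference with the knockout was 0.00 (interval -0.07 to 0.08), the narrowest interval of the 10 genes. Tsc2 had 141 to 183 CPM (median 161) in APP/PS1/FTnKO, wider than 147 to 164 in APP/PS1 and 153 to 169 in WT, and differed by 0.02 from APP/PS1 (adjusted p = 0.916) and by -0.03 from WT (adjusted p = 0.814).

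In the complex itself, Mtor and Rptor were lower in both transgenic groups than in WT by amounts that did not pass the test. Mtor had 115 to 141 CPM (median 129) in APP/PS1/FTnKO, 120 to 145 (median 132) in APP/PS1, and 142, 144, 145, 147 and 148 in WT. All 6 knockout mice and 5 of 6 APP/PS1 mice were below every WT mouse, although groups that did not overlap made up 5.6% of all tested genes in APP/PS1/FTnKO against WT. The log2 fold change was -0.18 (SE 0.05, interval -0.30 to -0.07, adjusted p = 0.0666) for APP/PS1/FTnKO and -0.12 (SE 0.05, adjusted p = 0.344) for APP/PS1, and by DESeq2 the former gave adjusted p = 0.0281. Without APP/PS1 mouse 16975 or APP/PS1/FTnKO mouse 18973 the former also passed in edgeR, at adjusted p down to 0.0332. Between the transgenic groups Mtor differed by -0.06 (interval -0.17 to 0.04, adjusted p = 0.683).

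Rptor had 78.9 to 95.1 CPM (median 91.4) in APP/PS1/FTnKO, 80.7 to 93.4 (median 89.0) in APP/PS1 and 94.2, 98.8, 100.5, 102 and 103 in WT. All 6 APP/PS1 mice lay below the 5 WT mice, as the groups did in 2.4% of all genes, but the edge was less than 1 CPM wide. The difference was -0.18 (SE 0.05, adjusted p = 0.14) in APP/PS1 and -0.15 (SE 0.05, adjusted p = 0.11) in APP/PS1/FTnKO against WT. From mouse to mouse Mtor and Rptor had a Pearson r of 0.802 over 17 mice after the mean of each genotype had been taken out. Sex was not taken out, and this r was the highest of the 45 pairs of members. The slope on RIN was 0.16 log2 units per unit for Mtor and 0.14 for Rptor (adjusted p = 0.0929 and 0.147), while APP/PS1/FTnKO mice had a RIN of 7.6 to 8.7, APP/PS1 mice 7.7 to 8.7 and WT mice 8.5 to 8.8. Its part in these differences was not tested beyond the fit with RIN as covariate.

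Mlst8 had 42.2 to 47.9 CPM (median 46.0) in APP/PS1/FTnKO, 39.3 to 44.6 (median 40.6) in APP/PS1 and 39.8, 41.8, 44.0, 44.3 and 45.4 in WT, and 5 of 6 knockout mice were above all APP/PS1 mice. The difference of 0.15 log2 units (SE 0.05, interval 0.05 to 0.25) did not pass over all genes (adjusted p = 0.233), and against WT it was 0.09 (adjusted p = 0.338), with APP/PS1 at -0.06 against WT (adjusted p = 0.62). Of its 4435 exonic bases, 997 also belong to Bricd5 on the other strand, and the sources used here do not say whether reads were counted by strand, so part of this value could come from either gene. Akt1s1 differed by 0.08 from APP/PS1 (interval -0.04 to 0.21, adjusted p = 0.64) and by 0.00 from WT (adjusted p = 0.978).

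Rps6kb1, the kinase downstream of the complex, had 54.0 to 59.6 CPM (median 56.1) in APP/PS1/FTnKO, 51.0 to 57.9 in APP/PS1 and 50.9 to 57.7 in WT. These ranges overlapped widely, and the differences were 0.05 from APP/PS1 (interval -0.04 to 0.15, adjusted p = 0.694) and 0.05 from WT (adjusted p = 0.572).

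**Figure D3:**
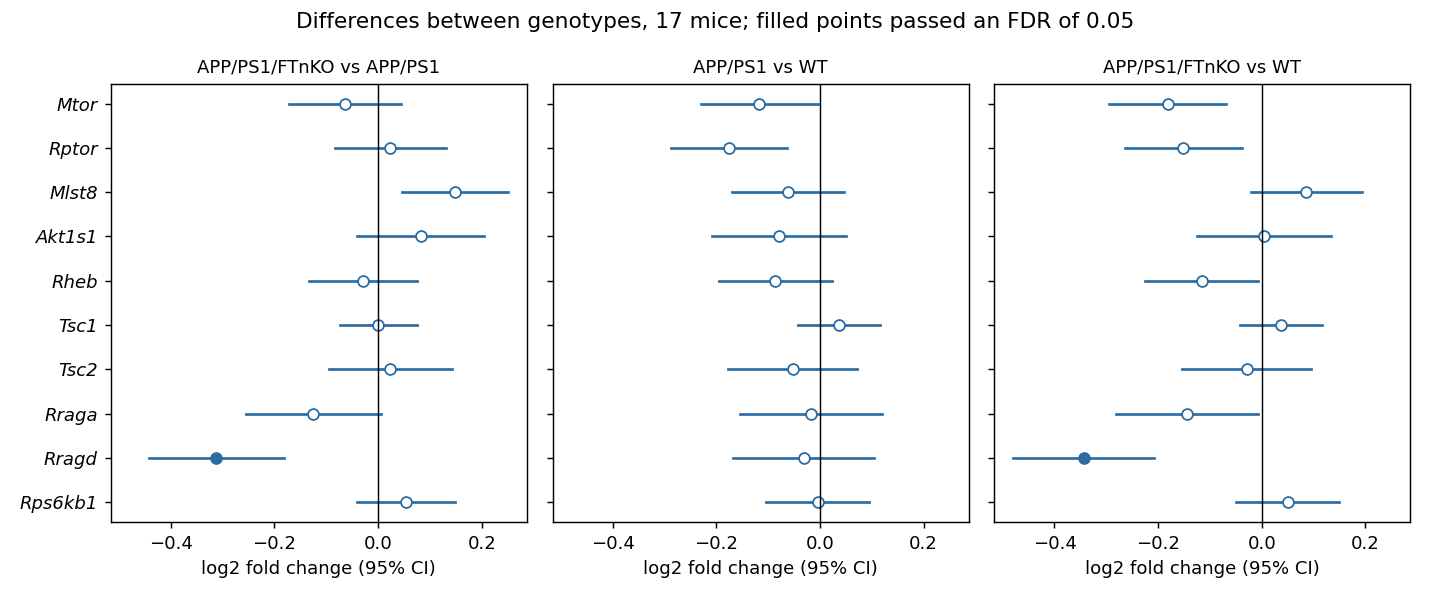
Log2 fold change (horizontal axis) of the 10 genes in the 3 comparisons, with 95% intervals from the fit over 17 mice, and filled points for those that passed an FDR of 0.05. Rragd, at -0.31 and -0.34, is filled in both comparisons of APP/PS1/FTnKO and lies at -0.03 in APP/PS1 against WT.

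Per kilobase of exonic sequence, the Rag GTPases were the most abundant of the 10. Rraga had a mean level of 48.3 CPM per kb in WT (46.2 to 51.0), Rragd 34.5 (29.8 to 39.2), Tsc2 16.9 and Mtor 14.4, and none of these neighbours overlapped. Akt1s1 followed at 10.9 CPM per kb (10.7 to 11.4), then Tsc1 at 9.99, Rheb at 9.86 (9.26 to 10.7) and Mlst8 at 9.71. The last 3 overlapped one another, and Rheb also overlapped Akt1s1 at the edge, so their order is not settled by these mice. Rptor, at 7.41, and Rps6kb1, at 6.28, came last and did not overlap. The length is the union of all annotated exons, so a gene with long, little used exons reads too low.

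By mRNA pattern over the 17 mice, described without a test, the genes most like Rragd were Camk2b, a subunit of the neuronal CaM kinase, at a Pearson r of 0.888, then Sec14l1 at 0.864 and Ppm1d at 0.861. For Rheb they were Dclk1 (r = 0.925), Dusp3 (0.912) and Pi4ka (0.909), and for Mtor, Kcnh1 (0.965), Stox2 (0.964) and Sh3bp5l (0.949). Camk2b fell to r = 0.828 without the 2 mice farthest from the median, and Mtor and Kcnh1 to 0.947. These are the highest of 17414 correlations for each gene, over the same 17 mice, which differed in depth, RIN and marker levels, so the ranking is a description only.

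Further genes of the pathway came from a list of 80, of which 79 were matched and tested. None passed in APP/PS1/FTnKO against APP/PS1 or in APP/PS1 against WT, with 10 at an unadjusted p under 0.05 in each (12.7%, where 11.5% and 14% of all genes had one). By DESeq2 1 and 0 passed. Against WT, 4 of 79 passed in APP/PS1/FTnKO, 1 higher and 3 lower, where 3.87% of all genes did, and 24 had an unadjusted p under 0.05, 5 higher and 19 lower (30.4%, where 22.1% of all genes did). The list's median was -0.02, -0.02 and -0.04 in these comparisons.

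Of the 20 inputs from growth factors and energy, 10 had an unadjusted p under 0.05 in APP/PS1/FTnKO against WT, 9 of them lower, where 22.1% of all genes had one, and 1 of 20 passed the FDR of 0.05, where 3.87% of all genes did. In APP/PS1 against WT it was 2 of 20, 1 higher and 1 lower, beside 14% of all genes.

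Among the amino acid sensors, Castor2, a relative of the arginine sensor CASTOR1, had 135 to 164 CPM (median 147) in APP/PS1/FTnKO and 185 to 198 in WT. Its log2 fold change against WT was -0.35 (SE 0.07, adjusted p = 0.0138), and APP/PS1, at 140.3 to 193 CPM, stood at -0.25 against WT (adjusted p = 0.111), or -0.31 (0.0175) without APP/PS1 mouse 19619. Against APP/PS1 the knockout was at -0.10 (adjusted p = 0.629). Sesn1, of the sestrin family of leucine sensors, had 46.9 to 53.9 CPM in APP/PS1/FTnKO and 55.5 to 59.8 in WT, at -0.21 (SE 0.05, adjusted p = 0.0315). Castor1 was rare and scattered, at 1.70 to 4.56 CPM in APP/PS1 and 2.35 to 2.80 in WT (log2 fold change 0.46, adjusted p = 0.289).

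Of the substrates and outputs, Rps6, the ribosomal protein that S6 kinase phosphorylates, was the gene that rose. It had 157 to 190 CPM (median 178) in APP/PS1/FTnKO and 139, 144, 147, 149 and 149.6 in WT, with no overlap, at 0.27 (SE 0.06, adjusted p = 0.0213), while against APP/PS1 it stood at 0.13 (adjusted p = 0.407). Rps6 has processed pseudogene copies and its count is uncertain in so far as reads were shared with them. Tfe3, the transcription factor named with Rragd, had 42.4 to 45.6 CPM in APP/PS1/FTnKO and 47.0 to 53.4 in APP/PS1 with no overlap, where 0.97% of all genes had none. Its log2 fold change was -0.16 (SE 0.04) at adjusted p = 0.133 by edgeR and 0.0491 by DESeq2.

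The calls of Castor2, Sesn1 and Rps6 did not hold under every choice of mice and covariates. Castor2 lost its call without WT mouse 18944 or 19053 (adjusted p up to 0.0573). Rps6 lost its call without any of 16974, 18943, 18944, 19053 or 19718 (up to 0.0643), and Sesn1 without any of 16974, 18944, 19053, 19101, 19394, 19718 or 19721 (up to 0.0919). With the excitatory marker level as covariate, Castor2 alone was still called, while Rps6 stood at 0.20 (adjusted p = 0.0663) and Sesn1 at -0.21 (0.0811). Sesn1 was also not called with RIN as covariate (-0.18, adjusted p = 0.0669), at a RIN of at least 8 (-0.19, 0.0599) or with no filter on low counts (-0.20, 0.0801). With 19622 included, Castor2 again was the only one called, and without 19554 and 19053 none was.

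**Figure D4:**
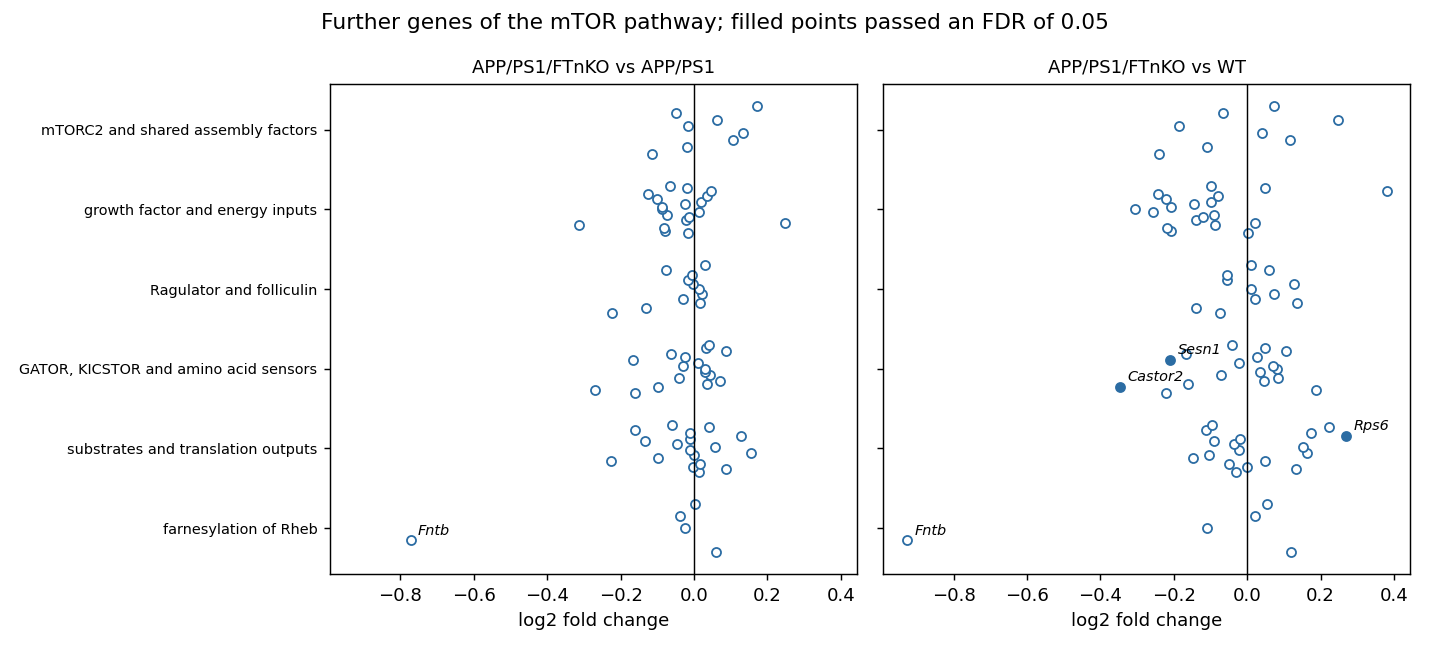
Log2 fold change (horizontal axis) of further pathway genes grouped by role (rows), for APP/PS1/FTnKO against APP/PS1 on the left and against WT on the right, with filled points for genes that passed an FDR of 0.05. Filled points stand only on the right (Sesn1, Castor2 and Rps6), and Fntb, not filled, is at -0.77 and -0.93.

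The other genes named by rank differed by small amounts, none of which passed in the main edgeR fit. In mTORC2 and the shared assembly factors, Rictor, the defining subunit of mTORC2, was at -0.17 in APP/PS1 against WT (adjusted p = 0.141) and at -0.18 in APP/PS1/FTnKO (adjusted p = 0.0532, and 0.0152 by DESeq2), with Telo2 at 0.25 against WT (adjusted p = 0.0852) and Tti2 at 0.17 against APP/PS1 (adjusted p = 0.298), both members of the chaperone that assembles mTOR kinases. Rragc, the RagD paralog, was at 0.14 in APP/PS1 against WT (adjusted p = 0.206) and at -0.08 in the knockout against APP/PS1 (adjusted p = 0.569).

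WT mouse 19622 is given last and on its own. On the scaling of all 18 mice, 7 of 10 members were outside the range of the other 17 in it, where 55.4% of all genes were. It was above them for Mtor (152 CPM), Rptor (108) and Rps6kb1 (61.5), and below them for Akt1s1 (26.7), Tsc1 (109), Tsc2 (139) and Rragd (109), where the next lowest mouse had 126. Mlst8, Rheb and Rraga, at 48.1, 73.6 and 83.8 CPM, were within the range.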

How the data were processed

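Frontal cortex RNA from 18 mice was sequenced from stranded mRNA libraries, and the deposited table holds raw read counts per gene for each mouse. Per the study's methods and the labels, the authors trimmed reads with Trimmomatic 0.33, aligned them with HISAT2 2.1.0 and counted them with featureCounts, FastQC 0.11.7 serving as the quality check. The study's methods name the genome as GRCm38, the labels list mm10 (the same build) and mm9 with no role, and the sources used here do not give the strand and multi-mapping settings of the counting. Groups came from the genotype labels. The labels do not say that litters or batches were shared, and each mouse is 1 library.

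The members and gene lists were chosen with earlier results of these data known. Counts were tested with edgeR 4.0.16 (quasi-likelihood F test with sex and genotype as terms, TMM scaling, genes kept by filterByExpr at 10 counts or more) in R 4.3.3 over 17 mice, without WT mouse 19622, and p-values were adjusted by Benjamini-Hochberg over 17414 genes at an FDR of 0.05. The fit was tested on simulated counts. Intervals are 95% from the fit, and CPM are normalized on the same scaling. Single genes were also tested by a two-sided exact permutation test of the mean log2 CPM. Of the pathway list, genes past the threshold and the 2 of smallest p in each direction per comparison were named, except that 1 gene of the list is not reported here and enters only the counts. Alternatives were another scaling, limma-voom (limma 3.58.1), DESeq2 1.42.0, other filters, other covariates, all 18 mice and each mouse left out. Positions came from GENCODE M21, which held 99.5% of the gene IDs, and promoter windows from RefSeq (GRCm38.p6). With 15925432 to 21030935 reads a library, the members had 480 to 4133 counts a mouse in the fit.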

Additional observations from a re-analysis of the deposited data

Results flagged for a closer look

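Of 84 sets of mice examined over 21 named genes, 7 held a mouse far from the rest of its group, where chance gives about 1 in 20. In 6 of these the mouse was WT mouse 19622, compared with the other 5 WT mice on the scaling of all 18. It was below them for Akt1s1, at 26.7 CPM against 32.7 to 34.9. It was above them for Rictor (126 CPM against 69.5 to 81.2), Telo2 (32.6 against 29.2 to 30.3), Sesn1 (79.4 against 55.8 to 59.7), Castor1 (3.83 against 2.36 to 2.79) and Rps6 (174 against 140 to 149). The remaining one was Castor1 in APP/PS1 mouse 19744, at 1.70 CPM against 3.60 to 4.56 in the other 5, and without that mouse Castor1 in APP/PS1 against WT had a log2 fold change of 0.62 and an adjusted p of 0.0196 by edgeR, in place of 0.46 and 0.289. No difference between the sexes in a genotype effect was called for any named gene.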

How the results depend on the processing

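Counts of called genes moved most. In APP/PS1/FTnKO against APP/PS1, 57 genes became 2 with all 18 mice, 244 by DESeq2 (34 with all 18), 104 with no filter, 261 with RIN as covariate, 14 at a RIN of at least 8, 5 with only these genotypes fitted, 120 with the excitatory covariate and 8 without mice 19554 and 19053. The last pair of alternatives was chosen after seeing the data. The count of members there, 1, became 0 with all 18 mice by either tool, with no sex term, at a RIN of at least 8, with only these genotypes and without 19554 and 19053, and that of pathway genes, 0, became 1 by DESeq2. In APP/PS1 against WT, 261 genes became 457 by DESeq2 (414 with all 18 mice), 452 with no filter, 84 with RIN as covariate, 120 at a RIN of at least 8 and 100 without 19554 and 19053, and DESeq2 on 18 mice called 1 member, Rptor, and 1 pathway gene, Castor2 (both at adjusted p = 0.0397). In APP/PS1/FTnKO against WT, 674 genes became 261 with all 18 mice, 1301 by DESeq2, 388 with RIN as covariate, 368 at a RIN of at least 8, 222 with the excitatory covariate and 149 without 19554 and 19053. Members called there were 0 with all 18 mice, 2 by DESeq2 (Rragd and Mtor) and 2 by DESeq2 on 18 mice, where they were Mtor (adjusted p = 0.0213) and Rptor (0.0478) and Rragd was lost (0.255), and pathway genes, 4 at first, were 1 with all 18 mice, 8 by DESeq2, 1 with the excitatory covariate and 0 without 19554 and 19053. Leaving out each mouse gave 10 to 81, 124 to 465 and 206 to 987 genes in these comparisons, 0 to 1 and 1 to 2 members in the first and last, and 0 to 2 and 0 to 6 pathway genes in the second and last. Genes were lowest without 19554, 19053 and 19053, and highest without 16975, 19744 and 18973, in that order. The cause was not tested.

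Signs turned for values that were not called, all near 0 but for Fntb in APP/PS1 against WT (-0.15). With RIN as covariate they were -0.0036 for Rptor, -0.0046 for Tsc1 and -0.0030 for Tsc2 in APP/PS1/FTnKO against APP/PS1, 0.0052 for Tsc2, 0.042 for Rraga and 0.023 for Rragd in APP/PS1 against WT, and -0.0020 for Akt1s1 and 0.0022 for Tsc2 in APP/PS1/FTnKO against WT. At a RIN of at least 8 they were -0.010 for Rptor against APP/PS1, 0.023 for Rraga in APP/PS1, and -0.0056 for Akt1s1 and 0.0096 for Tsc2 in APP/PS1/FTnKO against WT. Tsc1 against APP/PS1 was -0.0013 with all 18 mice, -0.0024 by DESeq2 (-0.0031 on 18 mice), -0.00037 by limma-voom and -0.0011 with another scaling (RLE). Rragd in APP/PS1 against WT was 0.083 with all 18 mice (0.078 by DESeq2), and Tsc2 in APP/PS1/FTnKO 0.0074 (0.0017). Rps6kb1 in APP/PS1 against WT was 0.0021 with a stricter filter, 0.0015 with only these genotypes, 0.00029 with the excitatory covariate and 0.00067 without 19554 and 19053. The excitatory covariate gave 0.012 for Rraga in APP/PS1 and -0.0050 for Akt1s1 in APP/PS1/FTnKO against WT, the latter at -0.0033 without 19554 and 19053. With a mouse left out, the ranges that crossed 0 were -0.0061 to 0.056 for Rptor, -0.015 to 0.017 for Tsc1 and -0.020 to 0.061 for Tsc2 against APP/PS1, -0.051 to 0.029 for Rraga, -0.063 to 0.039 for Rragd, -0.028 to 0.020 for Rps6kb1 and -0.34 to 0.014 for Fntb in APP/PS1 against WT, and -0.033 to 0.030 for Akt1s1 and -0.076 to 0.010 for Tsc2 in APP/PS1/FTnKO against WT. Fntb in APP/PS1/FTnKO against WT passed by DESeq2 (adjusted p = 0.0438, and 0.00562 on 18 mice), with no filter (0.0036) and with only these genotypes (0.0482), and Telo2 at a RIN of at least 8 (0.0474).

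No paired analysis was possible because the labels carry no replicate numbers and tie no mouse to a litter, and numbers given in accession order only name a mouse. The standard errors of the members were 0.04 to 0.07 log2 units.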
